A study of Mus musculus with 3 samples.

Results

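The receptors for prostaglandins, thromboxane and oxytocin were followed in whole mouse ovaries in which the clock gene Bmal1 (symbol Arntl) had been deleted by Cre made under control of the sf-1 promoter. The genes were those for the prostaglandin F receptor (Ptgfr), the prostaglandin E receptors Ptger1 to Ptger4, the prostacyclin receptor Ptgir, the prostaglandin D receptor Ptgdr, the thromboxane receptor Tbxa2r and the oxytocin receptor Oxtr. They were chosen by name, as every non-control probe whose gene name on the array equals 1 of the 9 symbols. In all 15 probes of 8 genes were found among 41174 probes of 28090 gene names, and Ptger1 had no probe under its symbol. Of the 15 probes, 11 passed the filter on dim probes and read 7 genes, against 26429 probes of 17901 gene names over the whole array.

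All mice were C57Bl/6J females of 10 weeks, homozygous for the floxed Bmal1 allele (Bmal1fxfx), kept in a 12 hour light and dark cycle with free food and water, and killed at Zeitgeber time 12 (lights off) on day 3.5 post copulation. The conditional knockouts (cKO, Bmal1fxfxCresf-1) also carried the Cre transgene, and the controls were Bmal1fxfx without Cre, so the floxed allele was common to both groups. On each of 3 two-colour Agilent arrays a pool of 3 cKO ovary RNAs in cy3 was hybridised against a pool of 3 control RNAs in Cy5, so that 9 animals of each genotype were read as 3 pools. The question, from the title of the series, is how disrupting BMAL1 in the periphery of the reproductive axis bears on female infertility. SF-1 is made in steroid-producing cells of the ovary but also in the adrenal cortex, pituitary gonadotropes and hypothalamus, so deletion by this Cre is not limited to the ovary. No dyes were swapped, so the genotype and a dye preference of a probe cannot be told apart.

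Prostanoids are short-lived lipids made from arachidonic acid, and each acts mainly through its own G protein-coupled receptor or set of receptors. The F receptor, the thromboxane receptor and the oxytocin receptor act mainly through Gq and calcium, the E receptor Ptger3 mainly through Gi, and Ptger2, Ptger4, Ptgir and Ptgdr mainly through Gs and cyclic AMP. In the rodent ovary prostaglandin F acting on luteal cells through Ptgfr starts the regression of the corpus luteum, and prostaglandin E acting on cumulus cells through Ptger2 supports ovulation. Oxytocin and its receptor are best known for contraction of the uterus and ejection of milk.

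Each ratio comes from a probe of 60 bases bound to the slide, and the first 30 bases of the 7 probes with the largest ratios or their second probes are given to show which strand stretch was read. Both probes of Ptgfr, of Ptger3 (those above background) and of Oxtr differ in sequence. They share a gene name on the array but were not placed on transcripts, and they read the same RNA pools.
Ptgfr A_52_P153019: tgtccttgagtagaacacacatttgagttt
Ptgfr A_52_P707884: ctgttttctatggtcagaatataaagactg
Ptger3 A_51_P520718: ctaaatgttcagctagagctgttaaaagga
Ptger3 A_52_P677744: cgccgctattgataatgatgttgaaaatga
Tbxa2r A_52_P55772: tgagtgcttggtggactaaggacggagcta
Oxtr A_51_P328870: ttgtgaatcagagacgtaatattattggac
Oxtr A_52_P430422: tgcggcgttggcacgggtcagtagtgtcaa

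The deletion targets a transcription factor that binds the E-box CACGTG. SF-1, whose promoter drives the Cre, binds sites with the core AAGGTCA and is not the gene deleted. The promoters of the 4 receptors with the largest ratios are shown, from RefSeq (GRCm38.p6), 250 bases before to 50 after the start of the gene. Matches to either motif on either strand are in capitals. Both motifs were chosen with the ratios known. Oxtr lies at chr6:112489776-112490075 (minus strand), Tbxa2r at chr10:81328018-81328317 and, for a second start, at chr10:81328453-81328752 (plus strand), Ptgfr at chr3:151837479-151837778 (minus strand) and Ptger3 at chr3:157566626-157566925 (plus strand).
Oxtr: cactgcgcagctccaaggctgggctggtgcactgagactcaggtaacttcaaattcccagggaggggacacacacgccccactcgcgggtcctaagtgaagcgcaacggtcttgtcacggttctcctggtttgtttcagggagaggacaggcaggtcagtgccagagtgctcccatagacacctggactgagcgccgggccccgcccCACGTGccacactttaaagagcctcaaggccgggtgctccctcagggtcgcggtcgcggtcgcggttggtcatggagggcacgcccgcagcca
Tbxa2r, first start: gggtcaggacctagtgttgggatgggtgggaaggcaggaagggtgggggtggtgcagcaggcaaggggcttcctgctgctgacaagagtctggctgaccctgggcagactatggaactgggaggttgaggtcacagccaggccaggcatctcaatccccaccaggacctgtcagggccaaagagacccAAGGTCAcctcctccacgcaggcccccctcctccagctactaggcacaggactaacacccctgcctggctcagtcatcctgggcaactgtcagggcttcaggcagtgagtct
Tbxa2r, second start: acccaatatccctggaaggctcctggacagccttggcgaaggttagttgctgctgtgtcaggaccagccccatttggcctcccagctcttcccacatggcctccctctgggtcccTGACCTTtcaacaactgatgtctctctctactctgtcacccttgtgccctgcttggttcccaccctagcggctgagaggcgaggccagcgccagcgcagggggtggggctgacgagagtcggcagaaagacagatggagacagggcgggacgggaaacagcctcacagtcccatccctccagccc
Ptgfr: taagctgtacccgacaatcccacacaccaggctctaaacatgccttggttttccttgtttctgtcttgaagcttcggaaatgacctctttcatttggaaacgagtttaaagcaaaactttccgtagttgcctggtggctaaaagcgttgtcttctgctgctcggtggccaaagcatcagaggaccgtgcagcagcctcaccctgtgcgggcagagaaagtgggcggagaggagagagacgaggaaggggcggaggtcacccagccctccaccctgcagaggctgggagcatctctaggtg
Ptger3: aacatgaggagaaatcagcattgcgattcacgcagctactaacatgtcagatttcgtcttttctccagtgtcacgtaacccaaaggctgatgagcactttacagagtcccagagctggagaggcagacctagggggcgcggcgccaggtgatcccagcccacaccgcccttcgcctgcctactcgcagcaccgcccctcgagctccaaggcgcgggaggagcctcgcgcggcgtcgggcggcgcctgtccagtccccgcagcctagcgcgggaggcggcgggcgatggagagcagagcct

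The table held 9 windows of 8 of the receptors. CACGTG was found in 1 of them, that of Oxtr, beginning 43 bases before the start, and in 7.15% of all 32851 windows. AAGGTCA was found in both windows of Tbxa2r, 62 bases before the first start on the printed strand and 135 bases before the second start on the opposite strand, and in 4.72% of all windows. The motifs do not overlap each other in these windows. These matches describe letters only, and no binding was measured.

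Among all genes, the arrays agreed only in part. Over the probes kept, Pearson's r of the log2 ratios across probes, which are not independent replicates, was 0.476 for arrays 1 with 2, 0.0720 for 1 with 3 and -0.214 for 2 with 3. Spots well above background made up 67.4% to 69.1% of the cKO channel and 62.9% to 65.8% of the control channel, and having only 3 arrays limits precision throughout. The luteal (7 of 7), granulosa (6 of 6) and oocyte (7 of 7) markers passed the filter on dim probes and of the uterine markers Hoxa10, Hoxa11 and Pgr none did. For Arntl itself the log2 ratios were 0.26, 0.10 and -0.28 (limma, adjusted p = 1.000). The labels do not say which exon is removed, so whether its probe reads the deleted stretch is unknown, and it is no check of the genotypes.

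In the cKO ovaries Oxtr and Tbxa2r had ratios below 0 on all 3 arrays, with control levels 2.63-fold and 2.16-fold those of the cKO, and Ptgfr and Ptger3 had ratios above 0 on all 3 arrays, at 1.94-fold and 2.37-fold the control (first probes). Ptger2 had a smaller mean of 0.40, with ratios above 0 on all 3 arrays. Ptger4 and Ptgir lay near 0, and Ptgdr was not well above background in either genotype. No receptor passed an adjusted p of 0.05 (limma with Benjamini-Hochberg adjustment over 26429 probes), so none is called changed. Unless another scale is named, values are the scanner software's ratios of cKO over control on the log2 scale, as mean ± SD over 3 arrays (n = 3). Because whole ovaries were read, fewer cells that carry a receptor and less receptor RNA per cell cannot be told apart.

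**Figure D1:**
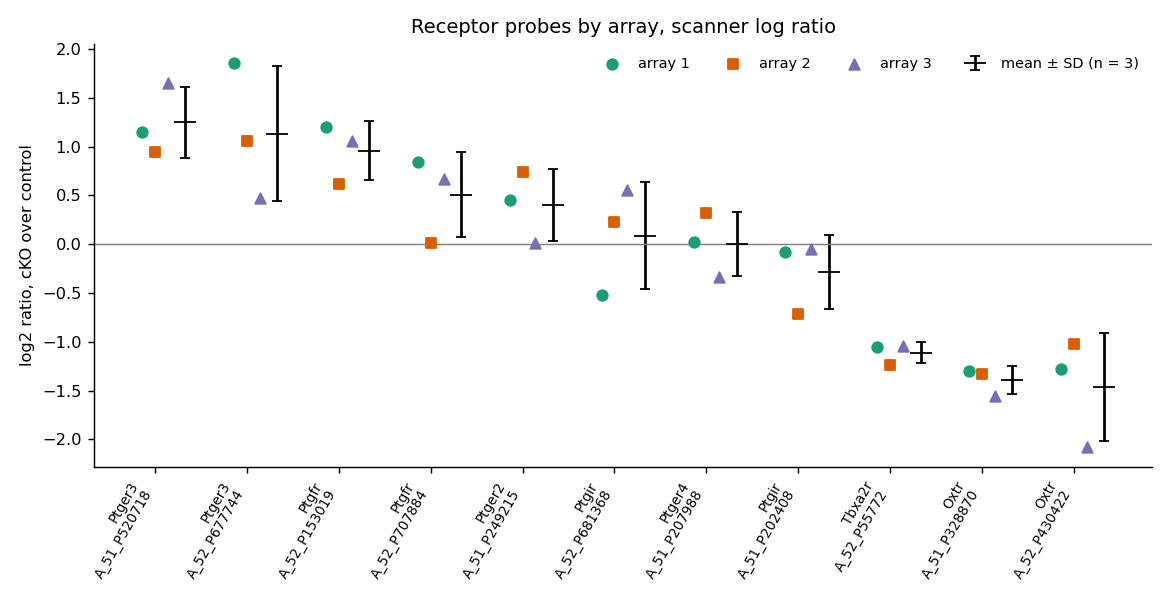
Log2 ratio of cKO over control (y axis) for each of the 11 receptor probes kept (x axis), by array, with the mean ± SD (n = 3) beside the points. Both Ptger3 probes, both Ptgfr probes and the Ptger2 probe lie above 0 on all 3 arrays. The Tbxa2r probe, both Oxtr probes and the Ptgir probe A_51_P202408 lie below 0 on all 3.

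Ptgfr, the receptor through which prostaglandin F acts on luteal cells, was read by probe A_52_P153019 at cKO signals of 53668, 32834 and 41105 on arrays 1 to 3, with control signals of 23350, 21378 and 19759. All 3 cKO signals exceeded all 3 control signals. The log2 ratios were 1.20, 0.62 and 1.06, a mean of 0.96 ± 0.30 or 1.94-fold (95% interval 0.38 to 1.53, limma, adjusted p = 0.383). The second probe, A_52_P707884, gave 0.84, 0.02 and 0.66, a mean of 0.51 ± 0.43 (limma, adjusted p = 1.000). On each array the first probe read higher than the second, by 0.36, 0.60 and 0.39, and both had their lowest ratio on array 2. With normexp background correction and loess in place of the scanner's ratio, the second probe was at 0.25, with -0.18 on array 2, so its sign there depends on the scale.

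Ptger3, the Gi-coupled E receptor, gave the highest mean of the set. Probe A_51_P520718 had cKO signals of 708, 312 and 909 and control signals of 320, 162 and 289. The cKO and control signals overlap only through array 2, where both channels were dimmest. Its log2 ratios were 1.14, 0.95 and 1.65, a mean of 1.25 ± 0.36 or 2.37-fold (95% interval 0.65 to 1.84, limma, adjusted p = 0.225). Probe A_52_P677744 gave 1.85, 1.06 and 0.48, averaging 1.13 ± 0.69 (limma, adjusted p = 0.502). Its control spots were well above background only on 1 array, and the ratios of the other arrays rest on dim control spots. Both probes were above 0 on every array but ranked the arrays in a different order, the first being highest on array 3 and the second lowest there. The remaining probe, A_52_P160481, was not well above background in either channel on any array. With normexp and loess the first probe was at 0.73 and the second at 0.16, both still above 0 on all 3 arrays.

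Oxtr, the oxytocin receptor, gave the lowest means of the set. Probe A_51_P328870 had cKO signals of 279, 228 and 271 and control signals of 684, 572 and 797, with no overlap between the genotypes. Its log2 ratios were -1.29, -1.33 and -1.56, a mean of -1.39 ± 0.14, which puts the control 2.63-fold above the cKO (95% interval -1.92 to -0.86, limma, adjusted p = 0.120). Probe A_52_P430422 gave -1.28, -1.03 and -2.08, a mean of -1.46 ± 0.55 (limma, adjusted p = 0.217). In the cKO channel this probe was well above background on 1 of 3 arrays, and in the control channel on all 3. Its cKO signals were 17.9, 26.7 and 13.4. Without array 2 its mean was -1.68 and it passed (limma, adjusted p = 0.0115), so array 2 decides that call. That fit called 355 of all probes kept, against 59 with all 3 arrays, so the pass is not particular to Oxtr. With normexp and loess the probes were at -1.06 and -0.25.

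Tbxa2r, the thromboxane receptor, known from platelets and smooth muscle, had the smallest spread of the 11 probes. Its probe had cKO signals of 302, 324 and 401 and control signals of 627, 761 and 825, again with no overlap. The log2 ratios were -1.06, -1.23 and -1.04, a mean of -1.11 ± 0.11, or 2.16-fold higher in the control (95% interval -1.64 to -0.59, limma, adjusted p = 0.218). With normexp and loess it was at -1.13 ± 0.03.

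**Figure D2:**
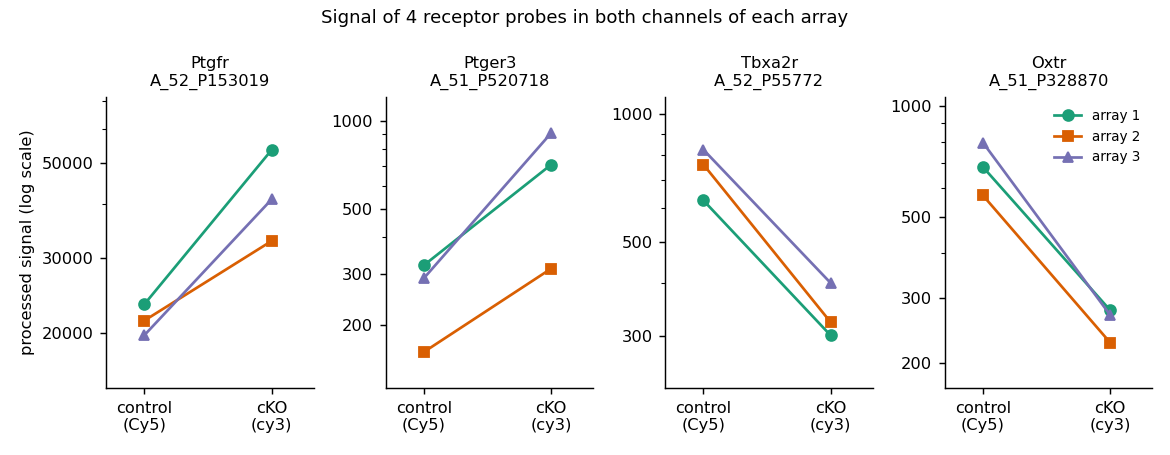
Processed signal (y axis, log scale, scaled separately in each panel) of 1 probe each of Ptgfr, Ptger3, Tbxa2r and Oxtr in the control (Cy5) and cKO (cy3) channel, with a line joining the channels of each array. The lines of Ptgfr and Ptger3 go up and those of Tbxa2r and Oxtr go down on all 3 arrays.

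The Gs-coupled receptors lay closer to 0. Ptger2, which supports ovulation, gave 0.45, 0.74 and 0.01 on arrays 1 to 3, a mean of 0.40 ± 0.37 (95% interval -0.20 to 1.00). Ptger4 gave 0.02, 0.32 and -0.33, a mean of 0.00 ± 0.33 (95% interval -0.58 to 0.59; -0.14 with normexp and loess), and its second probe was not well above background anywhere. Ptger2 exceeded Ptger4 by 0.42, 0.42 and 0.35 on the 3 arrays (0.40 ± 0.04), a pair chosen after the values were seen. Ptgir, the prostacyclin receptor, gave -0.08, -0.72 and -0.05 by probe A_51_P202408 (-0.29 ± 0.37) and -0.52, 0.23 and 0.55 by probe A_52_P681368 (0.09 ± 0.55). The Ptgir probes differ in sign, and for the second the control spots of 2 arrays were well above background. None of these 4 probes passed (limma, adjusted p = 1.000 for each). The interval of Ptger2 reaches 1.00 and that of the first Ptgir probe -0.89, so these data leave room for sizeable differences. Both Ptgdr probes were not well above background in either channel on any array, and the software listed their ratio at 0 after replacing both signals with surrogates.

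In the order of the means, the 2 Ptger3 probes (1.25 and 1.13) and the first Ptgfr probe (0.96) were followed by the second Ptgfr probe, Ptger2, the second Ptgir probe, Ptger4 and the first Ptgir probe, then Tbxa2r (-1.11) and the Oxtr probes (-1.39 and -1.46). Most neighbours in this order did not differ beyond their spread: the second Ptger3 probe minus the first Ptgfr probe, for example, was 0.17 ± 0.66, and the second Ptgfr probe minus Ptger2 was 0.11 ± 0.73. The difference had the same sign on all 3 arrays for 3 neighbouring pairs, the Ptgfr probes (0.45 ± 0.13), the first Ptgir probe with Tbxa2r (0.82 ± 0.27) and Tbxa2r with the first Oxtr probe (0.28 ± 0.21). The step from the first Ptgir probe to Tbxa2r left a gap, the lowest Ptgir ratio being -0.72 and the highest Tbxa2r ratio -1.04. Within arrays, Ptgfr exceeded Oxtr (first probes) by 2.50, 1.95 and 2.61, and Ptger3 exceeded Tbxa2r by 2.20, 2.18 and 2.69. These differences compare ratios, not levels, and were not tested, since the probes were picked for them. A shift common to a whole array cancels in them.

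Read against all probes, 2 of the 11 receptor probes (both Ptger3) had a mean of 1 or more and were above 0 on all arrays, where 1.16% of all probes kept did so. A further 3 of the 11 (both Oxtr and Tbxa2r) had a mean of -1 or less and were below 0 on all arrays, where 0.991% did. On each side 1 probe, the second of Ptger3 and the second of Oxtr, was kept only through the genotype in which it is brighter, so these counts are a description and support nothing. Of the 8 receptor probes whose cKO and control spots were both well above background on every array, 1 (Ptger3) was past 1 as higher and 2 (Oxtr and Tbxa2r) as lower, against 0.882% and 0.907% of 24600 such probes. Of all probes kept, 0.114% passed an adjusted p of 0.05 as higher and 0.11% as lower (30 and 29 probes, 50.8% higher), and 0 of the 11 did; at an unadjusted p under 0.05 in limma 3 receptor probes were higher (2.77% of all probes) and 3 lower (2.55%). With the arrays scaled to a common spread, 8 probes were called higher and 2 lower (80.0% higher), and with normexp and loess 1 probe was called (0.00378%, lower), with 0 receptor probes in either (limma, adjusted p from 0.104 upward with normexp and loess). Above 0 on all 3 arrays were 5 of the 11 probes (11.6% of all) and below 0 on all 3 were 4 (11.6%). The median of the 11 means was 0.09, against -0.01 over all probes kept. The scanner software's own error model gave a p below 0.01 for single spots on all 3 arrays for Tbxa2r, both Oxtr probes, the first Ptgfr and the first Ptger3 probe, which speaks of spot error and not of animals.

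**Figure D3:**
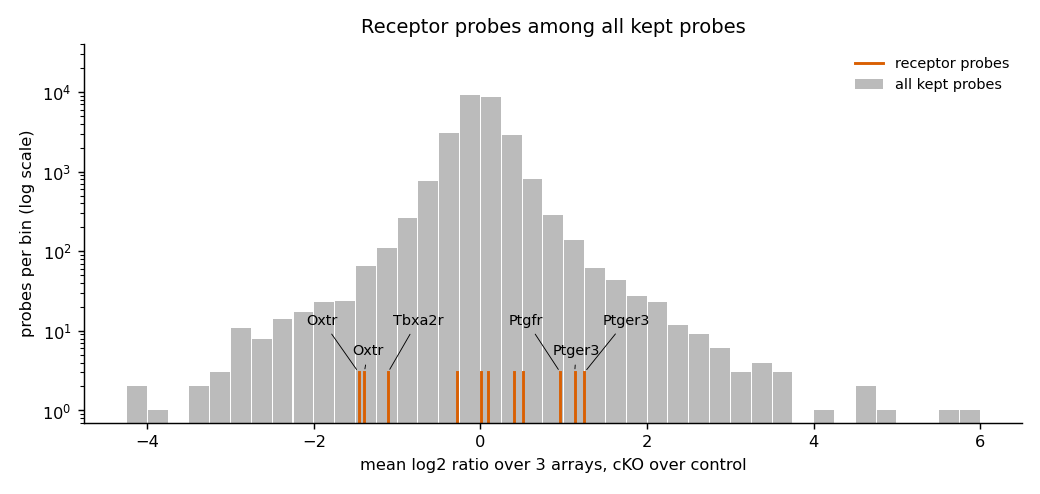
Number of probes (y axis, log scale) by mean log2 ratio over 3 arrays (x axis), for all 26429 probes kept (grey bars), with the 11 receptor probes as orange ticks of arbitrary height. Of all probes kept 0.745% lie above the first Ptger3 probe and 0.428% below the lower Oxtr probe.

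The scale mattered most for dim probes. On both scales, Tbxa2r, the first Oxtr probe and the first Ptgfr probe kept means near or past 1 in size, while the second Oxtr and second Ptger3 probes shrank toward 0 under normexp, where an offset of 50 is added in both channels. On the normexp scale 3 probes were past 1 in size, those of Ptgfr (1.07), Tbxa2r (-1.13) and Oxtr (-1.06).

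**Figure D4:**
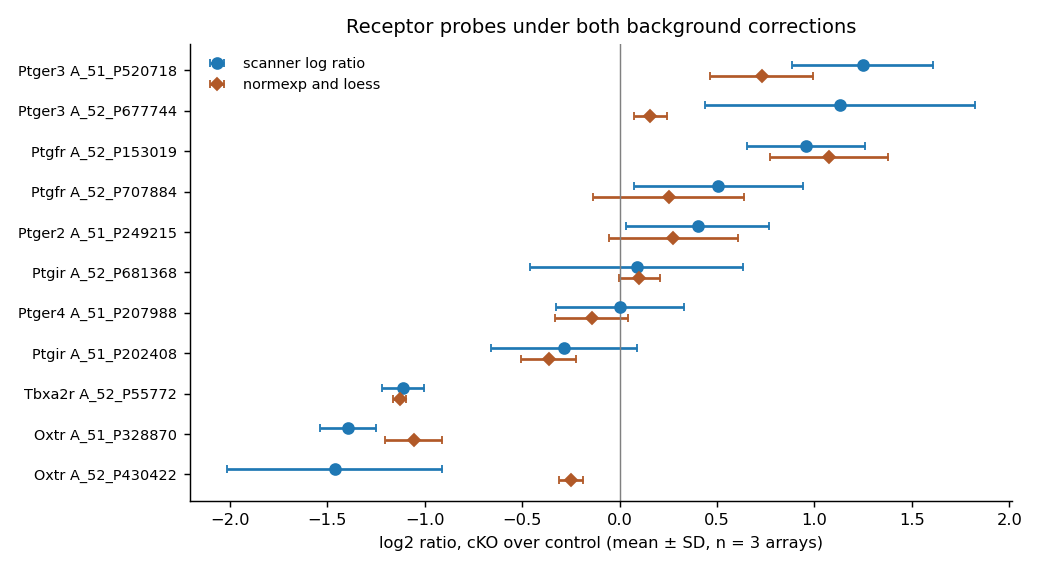
Mean log2 ratio ± SD over 3 arrays (x axis) of each of the 11 receptor probes (y axis) by the scanner's log ratio (circles) and by normexp and loess (diamonds). The values of Tbxa2r lie at -1.11 and -1.13, while the lower Oxtr probe moves from -1.46 to -0.25.

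Markers of other cell types differed between the pools, and their part in the receptor ratios was not tested. The smooth muscle list (6 of 6 kept, 0 passed) had a median of 0.23, 1.16 and -1.21 on arrays 1 to 3, with summed signals of 59430 to 128445 in cKO and 55392 to 132791 in control. Oxtr and Tbxa2r were below 0 and the first Ptgfr and Ptger3 probes above 0 on each array. Macrophage markers (6 of 7 kept, 0 passed) had medians of 0.90, 1.00 and -0.12, and their summed signals were 80880 to 163648 in cKO against 30979 to 59107 in control. The lysozyme gene Lyz2 (2.62, 1.31 and 0.58 on arrays 1 to 3) made up 79.5% to 92.7% of these sums, and on array 3 the other 5 markers were below 0. Without Lyz2 the sums were 5905 to 12206 in cKO and 4725 to 8825 in control. Ptger2 and Ptger4 had their highest ratio on array 2 and their lowest on array 3. The medians of the smooth muscle, macrophage, mast cell and platelet, and endothelial lists had the same order. The granulosa medians (-0.38, -0.22 and 0.20) and the oocyte medians (-0.21, -0.06 and 0.34) were instead highest on array 3. For mast cell and platelet markers (5 of 7 kept, Tpsb2 and Itga2b dim, 0 passed) the sums were 3042 to 4339 in cKO and 2521 to 3809 in control. Their medians were 0.34, 0.68 and -0.45 on arrays 1 to 3. Luteal markers (7 of 7 kept, 1 passed, Star) had medians of -0.33, -0.41 and -1.08, below 0 on all 3 arrays as Oxtr and Tbxa2r were. Of the 7 markers, 4 were below 0 on all 3 arrays and 1, Sfrp4, was above 0 on all 3. Their sums were 403914 to 467377 in cKO and 486227 to 741193 in control. Star alone had signals of 4637 to 6171 in cKO and 77765 to 101357 in control. On array 1, where the sums were 467377 in cKO and 486227 in control, Star differed by more than the sums did. On arrays 2 and 3 Star was part of the gap between the sums. Endothelial markers (6 of 6 kept, 0 passed) had medians of -0.05, 0.22 and -0.18, surface epithelium (5 of 5, 0 passed) 1.20, -0.41 and -0.48, and oviduct epithelium (3 of 5 kept, 0 passed) 1.50, -1.24 and 0.51. The oviduct marker Ovgp1 gave 1.50, -4.20 and 0.75, with signals on array 2 of 393 in cKO and 7211 in control. Foxj1 gave 0.50, -1.24 and 0.51 and Tacstd1 1.53, -0.35 and -0.32.

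**Figure D5:**
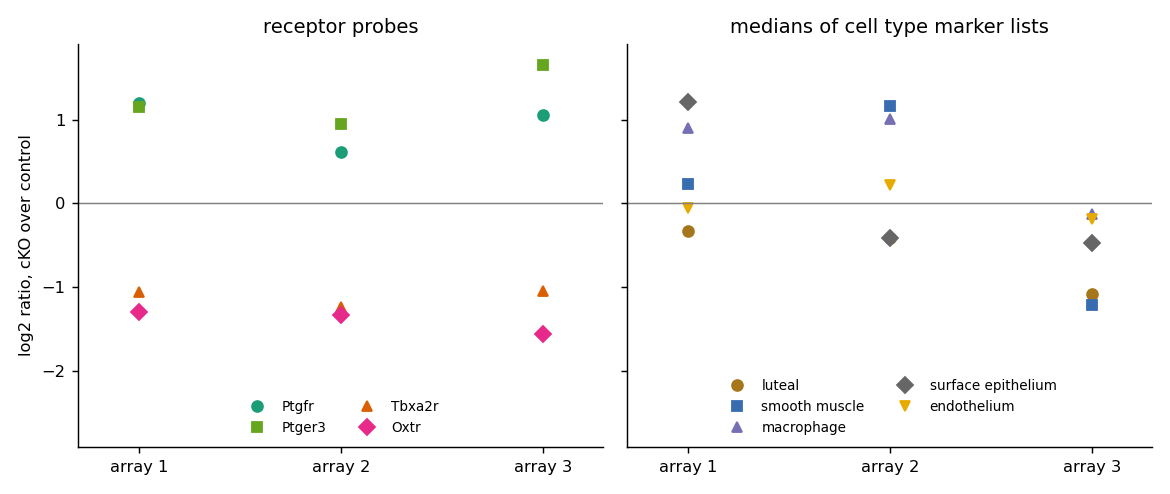
Log2 ratio of cKO over control (y axis) on each array (x axis) for 1 probe each of Ptgfr, Ptger3, Tbxa2r and Oxtr (left) and for the medians of 5 cell type marker lists (right). The receptors keep their sign on all 3 arrays, and the luteal median is below 0 on all 3. The smooth muscle median goes from 1.16 on array 2 to -1.21 on array 3.

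Of the genes around these receptors, 73 of 79 listed passed the filter, each read by its brightest kept probe. Over all of them 0 were called higher (0.156% of all genes were) and 1 lower (0.145%), Star, the cholesterol transport protein (-4.09 ± 0.12, limma, adjusted p = 0.0208). Above 0 on all arrays were 15 genes (11.5% of all) and below 0 on all arrays 10 (12.6%), and past 1 in mean with 1 sign were 2 higher (1.27%) and 3 lower (1.13%). As shares of the 73 genes, 20.5% were above 0 and 13.7% below 0 on all arrays, and 2.74% and 4.11% were past 1 as higher and lower. The genes were listed with earlier results known, so nothing is read from these shares.

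The related receptors had 3 of 5 genes kept. The vasopressin receptor Avpr1a, a Gq-coupled relative of Oxtr, gave 4.87, 1.78 and 4.39 on arrays 1 to 3, the highest mean above 0 in these lists (3.68 ± 1.66, limma, adjusted p = 0.136). Its signals were 1724, 47.9 and 210 in the cKO channel and 9.99 to 59.1 in the control channel, where the spot of 1 array was well above background. So the size of the ratio rests on dim control spots, and with normexp and loess it was at 1.31. The second prostaglandin D receptor, Ptgdr2 (Gpr44 on the array), was at -0.13 ± 0.24 and Ptgfrn, which encodes a membrane protein that associates with the F receptor, at 0.07 ± 0.61.

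Among 16 kept of 19 genes of prostanoid synthesis, transport and breakdown, 0 passed, with a median of 0.04. Prostaglandin D synthase, Ptgds, was at -1.09, -1.71 and -0.89 (-1.23 ± 0.43, limma, adjusted p = 0.261), its cKO signals of 933 to 1621 lying below its control signals of 2444 to 3445. The hematopoietic D synthase Hpgds was at 0.57 ± 0.82 (0.22 with normexp and loess) and the cyclooxygenase Ptgs1 at 0.55 ± 0.30, above 0 on all 3 arrays. The inducible cyclooxygenase Ptgs2 was too dim to be kept. Of the ligand side of Oxtr, 3 of 4 genes were kept and 0 passed, with a median of 0.21. The oxytocinase Lnpep was at 0.42 ± 0.27 (0.11 with normexp and loess, other probes at 1.07 and 0.46), oxytocin itself, Oxt, at 0.21 ± 0.07 (0.12 with normexp and loess) and Cd38, which supports oxytocin release, at -0.18 ± 0.06 with a second probe at 0.21.

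Signalling genes downstream of the receptors showed 0 calls. All 18 Gq and calcium genes were kept, with a median of -0.06. Prkcb, a protein kinase C activated by calcium and diacylglycerol, was at 2.19, 2.37 and 1.50 (2.02 ± 0.46, limma, adjusted p = 0.0695), with cKO signals of 2030 to 2786 against control signals of 392 to 777, and a second probe at 0.60. The inositol trisphosphate receptor Itpr1 was at 0.76 ± 0.33 and the G protein subunit Gna11 at -0.51 ± 0.28. All 20 genes of Gs, Gi and cyclic AMP signalling were kept, with a median of -0.02. The largest were the phosphodiesterases Pde4b (0.87 ± 0.48, other probes 0.97 and 1.01) and Pde4d (0.49 ± 0.62, 0.19 with normexp and loess) and the adenylyl cyclase Adcy7 (0.61 ± 0.53).

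Of 13 luteal genes known to respond to prostaglandin F, all were kept, 0 were called higher and 1 lower (Star), with a median of -0.12. The luteinizing hormone receptor Lhcgr gave -1.26, -1.30 and -1.23 (-1.26 ± 0.03, limma, adjusted p = 0.150). For Akr1c18, which breaks down progesterone, the ratios were 2.86, -0.40 and 2.66 (1.71 ± 1.83, limma, adjusted p = 0.850). Ptgfr was likewise lowest on array 2, but at 0.62 it stayed above 0 there. Of the same list, Nr4a1 was lowest on array 1 and Atf3 on array 3, and a link of any of them to Ptgfr was not tested.

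The probes most like the 2 member probes of largest mean in size, both of Oxtr, were found by Euclidean distance of the 3 log2 ratios, over 3 arrays. For probe A_51_P328870 they were Bean (0.17), Rab27a, a GTPase of vesicle secretion (0.19), and Dbp, a clock output transcription factor (0.27, with -1.50, -1.50 and -1.55 on the arrays). For probe A_52_P430422 they were the protease Bace2 (0.05), the sterol synthesis enzyme Lss (0.22) and the efflux pump Abcb1b (0.40). Within a distance of 0.5 there were 19 and 7 named probes. The cKO signals behind the ratios of A_52_P430422 were only 17.9, 26.7 and 13.4, and 1 of these 3 spots stood clear of background. With normexp and loess its mean was -0.25 in place of -1.46. The first Oxtr probe minus the second was 0.52 on array 3, so the 2 probes lay more than 0.5 apart. The likeness is therefore to the ratios of a single probe, not to Oxtr as a gene.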

How the data were processed

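RNA of whole ovaries was read on 3 two-colour arrays, each 1 replicate by its title, and p-values reflect the spread between pools. On arrays 2 and 3 the digit after the Cre name in the genotype label follows the array number; the arrays were grouped by title. Array 1 lay on 1 slide and arrays 2 and 3 on another. The deposited intensity values and flags were made by Agilent's Feature Extraction, version 9.1.3.1 in the headers. Detrending was on and LOWESS settings are listed for dye normalisation, per the file headers. Deposited log10 ratios divide red by green (control by cKO) and were turned and multiplied to log2 of cKO over control. The deposited p-values are of single spots by the software's error model. The value table of the series holds the same deposited log10 ratios (differences of at most 0), and its median was 0 on every array.

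Control spots and outlier flags (13, 4 and 0 spots) were left out and spots of a probe averaged. Probes well above background in 1 channel on all 3 arrays were kept. Ratios were tested against 0 with limma 3.58.1 (R 4.3.3; lmFit, eBayes, two-sided, intercept only) with Benjamini-Hochberg adjustment over 26429 probes. The script was tested on simulated data. Alternatives were normexp (offset 50) with loess, centring, scaling, other filters, slide, left-out arrays, flagged spots, the value table and 1 probe per gene. Named were all members, Arntl, the 3 genes of largest mean in size per list and any past the threshold, and the 3 likest named probes of the 2 largest member probes. Members and lists were chosen with earlier results of these data known. Probe names are those of the array's design.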

Additional observations from a re-analysis of the deposited data

How the results depend on the processing

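The direction of the means of Ptgfr, Ptger2, Ptger3, Tbxa2r, Oxtr and the first Ptgir probe was the same under every alternative that gave a value. For most alternatives this was fixed in advance, since each of these probes had 1 sign on all 3 arrays. Leaving out an array, blocking by slide, filtering or scaling could not turn such a mean, while normexp with loess or centring could. Ptger4 ranged from -0.15 to 0.17 and the second Ptgir probe from -0.14 to 0.39. Over 129 combinations of receptor probe and alternative, 128 stayed on the same side of the threshold and 1 passed, the second Oxtr probe without array 2. The 129 are not separate checks. The fit within the slide of arrays 2 and 3 is the fit without array 1, and the value table repeats the main ratios. Leaving out each array in turn gave 93 to 355 called probes in place of 59 and 2 to 4 called pathway genes in place of 1. With the slide as a block 287 probes, 6 receptor probes past 1 and 4 pathway genes were counted. Within the slide of arrays 2 and 3, 150 probes and 3 pathway genes were called. Without a filter on dim probes limma called 0 probes and 0 pathway genes (2658 probes at an unadjusted p under 0.05), scaling the arrays gave 10 and normexp with loess gave 1 (3061 at an unadjusted p under 0.05). Receptor probes past 1 numbered 3 in place of 5 with normexp and loess and with probes well above background in both channels. Averaging the probes of each gene left 3 genes past 1. The cause of these shifts was not tested. The fit is paired by array, since each ratio sets both genotypes against each other within a spot, so no further replicate block was fitted. Signal over background leaves 4 of the 15 probes, both of Ptgdr among them, without a usable ratio.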
